A study of Homo sapiens with 12 samples.

Results

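Pericentromeric regions are the chromatin that borders the centromere. They are rich in satellite and other repeats, are packed largely as constitutive heterochromatin carrying H3K9 methylation and HP1, and are known as places where RNA can act on chromatin, since transcripts of their own repeats have been linked to their silencing. In a genome build such as hg19 the centromeric arrays themselves stand as gaps, so aligned reads can form peaks only at their borders.

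Here these borders were found from the peaks. The peaks of 9 ChIRP-seq lists on chromosomes 1 to 22 were pooled, the longest stretch without any peak was taken on each chromosome, counting from position 1, and the peaks with a summit within 3 Mb of either end of that stretch were the members. They numbered 30321 of 737215 peaks on these chromosomes (4.11%), and 764268 on all sequences. Overlapping peaks (1 base or more) of all lists were joined, which gave 14195 pericentromeric regions out of 345599. The 3-Mb pieces are called flanks below. There were 39 of them, 117 Mb in all or 4.33% of the bases searched.

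In ChIRP-seq, crosslinked chromatin is captured with biotinylated oligonucleotides complementary to an RNA, and the DNA recovered with it is sequenced. The cells were Jurkat, an established human T-cell leukaemia line, with stable expression of SLEAR, a long non-coding RNA, and all groups carried it. Not given in the sources used here are the vector, the SLEAR level and whether the line was a clone. Libraries were made with lacZ probes, against a bacterial RNA that human cells do not make, and with odd and even probes, which in the usual design of this assay alternate along one tiling of the target RNA. Each set had 3 libraries numbered 1 to 3 and each library its own peak list, while 3 input libraries were not analysed here. The labels do not say whether these were separate cultures, and each p-value below measures no more than the spread between libraries, which may be technical. The lists held 25701 to 87905 peaks on chromosomes 1 to 22 with lacZ, 64348 to 112937 with odd and 87280 to 119936 with even probes. The read depth behind them is unknown.

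No hg19 centromere or gene annotation was used here, so the pericentromeric label could be checked only by where the stretches lie, and regions are given by position and not by gene. On chromosomes 13, 14, 15, 21 and 22, whose short arms are the acrocentric ones, the stretch began at position 1 and ended between 9413839 (chromosome 21) and 20001937 (chromosome 15), so that each gave 1 flank. The other 17 stretches lay inside the chromosome and gave 2 flanks each. Those of chromosome 1 (121484678 to 142537711), chromosome 9 (47308567 to 65467840) and chromosome 16 (35284270 to 46387095) were over 10 Mb long, and the remaining 14 were between 3.004 and 3.27 Mb long. On every chromosome but 21 the next longest stretch was at most 1.27 Mb. On chromosome 21 a second stretch of 3.17 Mb, from 11181622 to 14346883, began inside the flank. The peak that ended a stretch came from a lacZ list at 11 ends, from an odd list at 10 and from an even list at 18.

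Peaks were slightly sparser in the flanks than elsewhere on the same chromosomes in 8 of the 9 lists, those of lacZ included. The flanks held 15.2, 30.2 and 9.0 peaks per Mb in lacZ replicates 1, 2 and 3, against 16.8, 32.6 and 9.53 in the rest. With odd probes they held 22.5, 35.6 and 38.7 peaks per Mb, against 23.9, 38.0 and 41.9. With even probes they held 32.8, 32.5 and 42.6, against 33.8, 32.3 and 44.4. Even replicate 2 was the exception, and the log2 ratio averaged −0.08 ± 0.04 (SD, n = 9), or 0.946-fold. Because the members were chosen by the positions of peaks, this is a description and was not tested. When only 50-kb bins that held a peak in some list were counted, 96.4% of the flank bases and 99.4% of the rest, the log2 ratio was −0.04 ± 0.04 (SD, n = 9) and below 0 in 7 lists.

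The share of a list that fell in the flanks lay between 3.94% and 4.35% in every list. It was 3.94%, 4.02% and 4.10% in lacZ, 4.09%, 4.06% and 4.01% in odd and 4.21%, 4.35% and 4.16% in even lists. The even lists lay above all 6 others. The difference in log2 density ratio between the probe lists and the lacZ lists was 0.05 and did not exceed the spread between lists (exact permutation test over 84 choices of 3 lists, two-sided, p = 0.179, adjusted p = 0.179). It passed without the flanks of stretches that start at position 1 (0.07, exact permutation p = 0.0357) and among peaks with a fold at or above their list's median (0.10, exact permutation p = 0.0476), and was 0.11 with flanks of 1 Mb (exact permutation p = 0.0595). Between odd and even lists it was −0.07 (exact permutation p = 0.1, adjusted p = 0.179), where 3 against 3 cannot go below 0.1.

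Density changed with distance from the stretch. Within 100 kb it stood at 0.14 ± 0.24 on the log2 scale (SD, n = 9) relative to the chromosome beyond 10 Mb, and single lists ran from −0.12 to 0.61. The rule places at least 1 peak at each end, so this innermost value is partly set by it. From 0.5 to 1 Mb it was −0.14 ± 0.05, from 1 to 2 Mb −0.10 ± 0.04 and from 2 to 3 Mb −0.05 ± 0.03, and in each of these 3 intervals all 9 lists were below 0. Beyond the flanks, from 3 to 5 Mb, it was still −0.08 ± 0.04, and from 5 to 10 Mb it was 0.00 ± 0.03. The dip was therefore wider than the 3-Mb flanks. At the 3-Mb limit itself, the 500 peaks just inside (from 2.96 Mb) had a median fold enrichment of 10.5 and a median pileup of 25, and the 500 just outside (up to 3.04 Mb) 10.7 and 27.5.

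**Figure D1:**
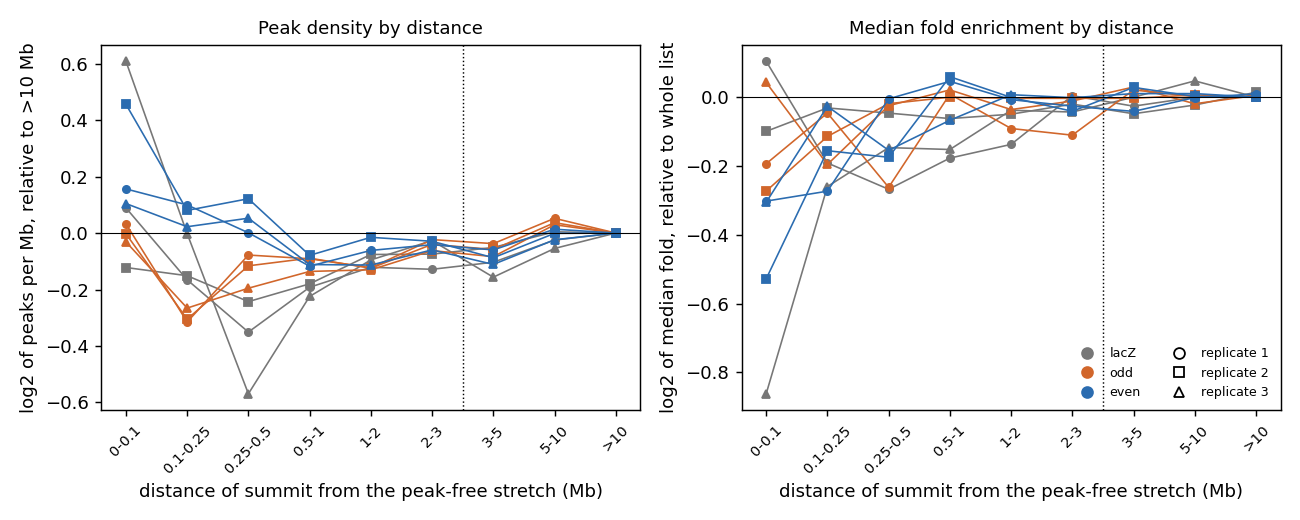
Left, peaks per Mb by distance of the summit from the peak-free stretch, as log2 relative to the same list beyond 10 Mb; right, log2 of the median fold enrichment relative to the whole list. Each line is 1 of the 9 lists (grey lacZ, orange odd, blue even; marker shape gives the replicate), and the dotted line marks the 3-Mb limit. Densities scatter most within 100 kb (−0.12 to 0.61), and the median fold is below the list's own in all 9 lists from 0.1 to 0.5 Mb.

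Peaks in the flanks were called with a lower fold enrichment. This fold is the authors' ratio of the pileup at a summit to a background, and it was compared only within a list. Its median in flanks and rest was 9.64 and 10.5, 11.7 and 12.1, and 11.4 and 12.5 in the lacZ lists. It was 9.51 and 10.2, 12.3 and 12.3, and 9.96 and 10.2 in the odd lists, and 10.4 and 10.8, 10.7 and 11.1, and 10.1 and 10.6 in the even lists. The flanks were lower in 9 of 9 lists, by −0.07 ± 0.04 on the log2 scale (SD, n = 9) or 0.954-fold (exact sign-flip permutation test over lists, two-sided, p = 0.00391, the smallest possible, adjusted over 4 measures p = 0.00781). Its size depended on the choice of flanks and peaks, from −0.10 with flanks of 1 Mb to −0.03 among peaks with a fold at or above their list's median (exact permutation p = 0.0469).

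The median height of the peaks was the same. Median pileup, the number of fragments over the summit, was 24, 25 and 22 in lacZ, 26, 33 and 20 in odd and 30, 32 and 20 in even lists in flanks and rest alike (difference 0, exact permutation p = 1). Pileup is a whole number, so a small shift need not move its median, and the mean of its log2 was 0.02 higher in the flanks (exact permutation p = 0.00781). The background implied by these values, the pileup plus 1 divided by the fold, was higher in the flanks in the median by 0.04 ± 0.03 (log2, SD, n = 9) or 1.025-fold (exact permutation p = 0.00391, adjusted p = 0.00781). It lost this with flanks of 1 Mb (0.02, exact permutation p = 0.254) and without the 5 flanks beside stretches that start at position 1 (0.01, exact permutation p = 0.0703). Fold, pileup and implied background are tied by that definition and are not separate evidence. The formula is an assumption, since the peak caller that defined the fold, and its control, are not given. Peak length differed by −0.02 ± 0.03 (exact permutation p = 0.102, adjusted p = 0.135).

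By distance, the median fold was lowest next to the stretches. Within 100 kb the median fold was −0.27 ± 0.29 (log2, SD, n = 9) relative to the list's own median and below it in 7 lists, with lacZ replicate 3 lowest at −0.86. From 0.1 to 0.25 Mb it was −0.14 ± 0.09 and from 0.25 to 0.5 Mb −0.12 ± 0.10, below 0 in all 9 lists in both. From 3 to 5 Mb it was −0.00 ± 0.03. Peaks from the 10% of lowest fold in their list made up 9.63% to 43.9% of the peaks within 100 kb.

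In each of the 9 lists the single highest pileup on chromosomes 1 to 22 belonged to a pericentromeric peak. Of the 20 tallest peaks of a list, 9, 6 and 19 lay in flanks with lacZ, 14, 12 and 12 with odd and 5, 5 and 4 with even probes. These shares of the tallest peaks, the top 1% below and the clusters at single stretches were chosen after their values had been seen.

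The 1% of peaks with the highest pileup lay in flanks in 5.29%, 3.30% and 14.1% of cases in the lacZ lists, 7.56%, 6.23% and 6.02% in the odd and 5.67%, 6.10% and 5.32% in the even lists. All but lacZ replicate 2 exceeded their share of all peaks, by 2.52 percentage points on average (exact sign-flip permutation p = 0.00781, adjusted over 3 measures p = 0.0117). Leaving out lacZ replicate 3, which had the highest share, reduced this to 1.58 points (exact permutation p = 0.0156), and leaving out peaks within 500 kb of the stretches reduced it to 0.671 points (exact permutation p = 0.082). Without all lists numbered 3 it was 1.58 points (exact permutation p = 0.0625), among peaks at or above the median fold 1.67 points, and with lists of equal length 4.14 points.

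For the implied background the same share was larger. The top 1% by background lay in flanks in 15.9%, 11.5% and 23.2% of cases with lacZ, 17.1%, 14.6% and 12.7% with odd and 13.4%, 12.4% and 10.25% with even probes. All 9 lists lay above their share of all peaks, by 10.5 percentage points on average (exact permutation p = 0.00391, adjusted p = 0.0117). The excess was 6.01 points without peaks within 500 kb of the stretches, 6.23 with flanks of 1 Mb and 6.45 among peaks at or above the median fold, each with the same exact permutation p.

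For fold enrichment the lacZ lists differed from the probe lists. The top 1% by fold lay in flanks in 2.65%, 2.61% and 3.10% of cases in the lacZ lists, in 5.90%, 4.68% and 4.25% in the odd and in 3.72%, 4.13% and 4.82% in the even lists. Every probe list was above every lacZ list. The difference was 1.80 percentage points (exact permutation test over 84 choices, p = 0.0119, the smallest possible, adjusted over 3 measures p = 0.0357). It was 0.747 points with flanks of 1 Mb (exact permutation p = 0.107) and 0.778 points with flanks of 5 Mb (exact permutation p = 0.202). Without the flanks of stretches that start at position 1 it was 1.12 points (exact permutation p = 0.0119), among peaks at or above the median fold 2.86 and with lists of equal length 3.42 points (exact permutation p = 0.0238 for both). Over all 9 lists the share by fold was 3.98% ± 1.09 (SD, n = 9) and its difference from that of all peaks was within the spread between lists (exact permutation p = 0.742).

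**Figure D2:**
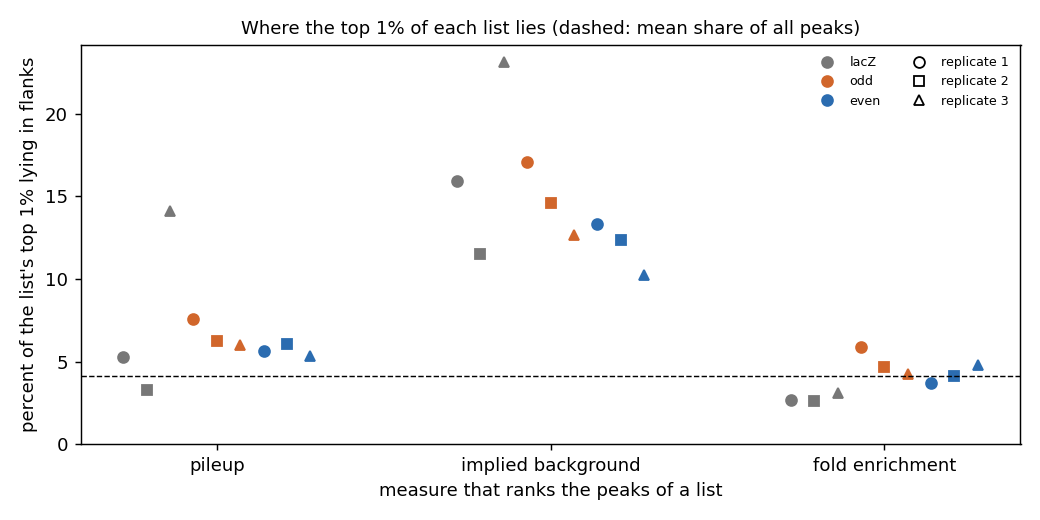
Percent of the top 1% of each list that lay in the flanks, with peaks ranked by pileup, by implied background or by fold enrichment; each point is a list, and the dashed line is the mean share of all peaks. Shares by background, from 10.25% to 23.2%, are all above the line, and by fold the 3 lacZ lists (2.61% to 3.10%) lie below all 6 probe lists.

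The tallest peaks of the odd lists formed a cluster at the right end of the stretch of chromosome 16. In its first 50 kb lay 6 regions, each with a peak in all 3 odd lists, and all 18 odd peaks belonged to the top 1% by pileup. The region from 46404755 to 46405831 held the highest pileup of each odd list, 9338, 13562 and 9451 in replicates 1 to 3, with folds of 11.8, 16.5 and 18.97, and no lacZ or even peak. The region from 46392802 to 46393898 had odd pileups of 8665, 12646 and 8952 at folds of 14.8, 21.2 and 22.9. It was the one region of the 6 with lacZ peaks, whose pileups were 948, 1374 and 658 at folds of 1.72, 2.98 and 2.01. The ranges of the odd and lacZ pileups did not overlap, though pileups are not scaled to depth.

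The other regions of the cluster were also tall, with 1 exception. Pileups were 3189, 4610 and 3418 from 46387096 to 46388133, 4702, 7168 and 4852 from 46412691 to 46413518, and 3527, 5710 and 3593 from 46423830 to 46425035. From 46399087 to 46400003 they were lower, 731, 1351 and 856, at folds of 1.39, 4.72 and 4.91. No even list had a peak in these 50 kb, and the nearest even peak was 71455 bases from the stretch. Within 100 kb the odd lists had 7 peaks each here, the lacZ lists 1 each and the even lists 2, 2 and 3. The implied background of these 6 regions was at the top of its list, so that their folds, none above 23.4, were moderate for pileups of this height.

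**Figure D3:**
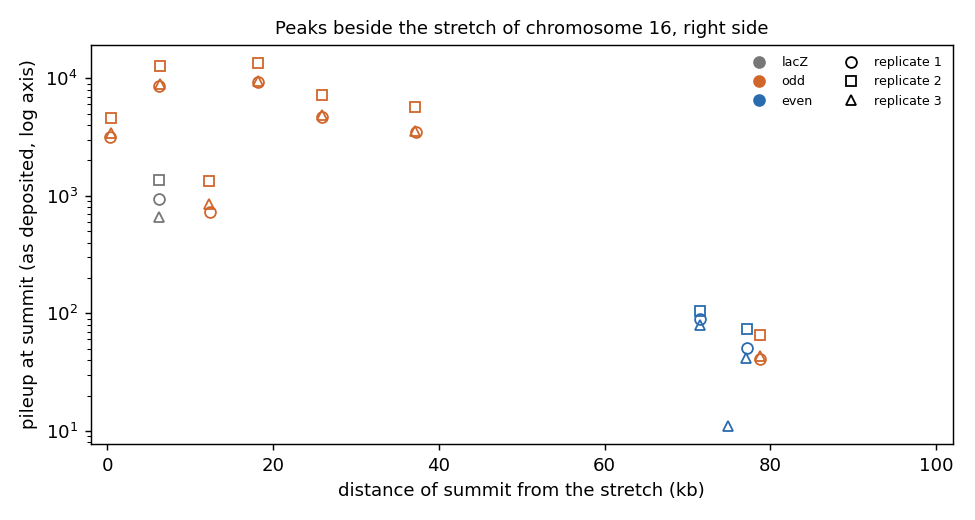
Pileup at the summit (log axis) of every peak within 100 kb of the right end of the stretch of chromosome 16, by distance from that end. The odd peaks of the first 50 kb reach 13562, lacZ peaks appear at 1 place with at most 1374, and even peaks start at 71455 bases.

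The tallest flank peaks of the even and lacZ lists stood elsewhere, mostly at low fold. The region on chromosome 6 from 58777687 to 58778295, at the very end of the left arm's peaks, held even pileups of 3527, 3420 and 2825 at folds of 3.74, 3.28 and 5.40. Of the lacZ lists only replicate 3 had a peak there (936, fold 2.14), and no odd list had one. Next to it, from 58776294 to 58776721, only lacZ lists had a peak, with pileups of 2368, 2551 and 1756 and folds of 3.0, 4.21 and 3.53. Tall peaks of lacZ and of even probes thus stood side by side, and in lacZ replicate 3 also in the same region.

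On chromosome 18 the first region right of the stretch, from 18518868 to 18520000, had tall even and lower lacZ peaks. Even pileups were 2314, 2354 and 1800 at folds of 5.997, 5.49 and 8.88, lacZ pileups 423, 352 and 373 at folds of 1.31, 1.65 and 1.83, and no odd list had a peak. On chromosome 19, from 27731927 to 27732438, 4 lists of all 3 sets had a peak 162 bases from the stretch. Its pileup was 4352 in lacZ replicate 1, 3816 in lacZ replicate 3, 3870 in odd replicate 1 and 4880 in even replicate 2, at folds of 1.42, 1.84, 1.11 and 1.14. These folds were among the lowest of their lists. The call recurred in 2 of the 3 lacZ lists, but was made in only 1 odd and 1 even list.

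One tall lacZ region was also strong by fold. On chromosome 16 from 33958365 to 33959313, 1.33 Mb left of the stretch, the lacZ pileups were 1566, 3078 and 683 at folds of 139, 304 and 157. No odd or even list had a peak there. The highest pileup of lacZ replicate 2 came from this region.

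Clusters within 100 kb whose counts differed between sets were seen at other stretches as well, chosen after the counts had been seen. Right of the stretch of chromosome 5 the odd lists had 14, 19 and 22 peaks and the even lists 9, 14 and 6, while lacZ had 0, 1 and 0. Right of that of chromosome 7 the order was the other way, with 16, 17 and 9 lacZ peaks, 0, 1 and 2 odd and 1, 1 and 4 even peaks. Left of the stretch of chromosome 18 the odd lists had 8, 9 and 6 peaks, the even lists 3, 4 and 3 and the lacZ lists 1, 1 and 0. Right of that of chromosome 4 the even lists had none, the odd lists 1, 6 and 7 and the lacZ lists 2, 7 and 2. On chromosomes 5 and 18 the odd and the even counts lay above all lacZ counts, and on chromosome 7 the lacZ counts lay above all probe counts. These are single flanks picked from 39.

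The odd and even probes address the same RNA, so a site found with both and not with lacZ is what the assay takes as a contact. Few peaks coincided between odd and even lists, in the flanks as elsewhere. Regions counted here held 2 or more lists of the set in question. Of the flank peaks of odd replicates 1, 2 and 3, 6.16%, 5.28% and 5.13% fell in such even regions, against 5.33%, 5.01% and 4.69% in the rest. Of the even peaks 4.71%, 5.29% and 4.63% fell in such odd regions, against 4.91%, 5.05% and 4.43%. Flanks were higher in 5 of 6 lists, by 0.296 ± 0.335 percentage points (SD, n = 6; exact sign-flip permutation p = 0.0938, adjusted p = 0.141).

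Coincidence with lacZ was also somewhat higher in the flanks. There 2.66%, 2.25% and 2.36% of odd peaks and 2.16%, 2.48% and 2.23% of even peaks fell in such lacZ regions, against 2.23%, 2.06% and 2.01% and 2.12%, 2.12% and 2.05% in the rest. All 6 lists were higher in the flanks, by 0.259 ± 0.147 points (SD, n = 6; exact sign-flip permutation p = 0.0312, the smallest possible, adjusted p = 0.0938). The difference between these differences, 0.037 ± 0.213 points, did not exceed the spread between lists (exact permutation p = 0.719). Without lacZ replicate 3 the flank difference for lacZ was 0.096 points (exact permutation p = 0.0625). With lists cut to equal length the difference for lacZ turned to −0.11 points and that for the other probe set to 0.491 points (exact permutation p = 0.219 and 0.0312). Among peaks at or above the median fold the difference for the other probe set was 0.00842 points (exact permutation p = 0.969). When summits had to lie within 100 bases of those of the other probe set, its difference turned to −0.28 points (exact permutation p = 0.0312).

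**Figure D4:**
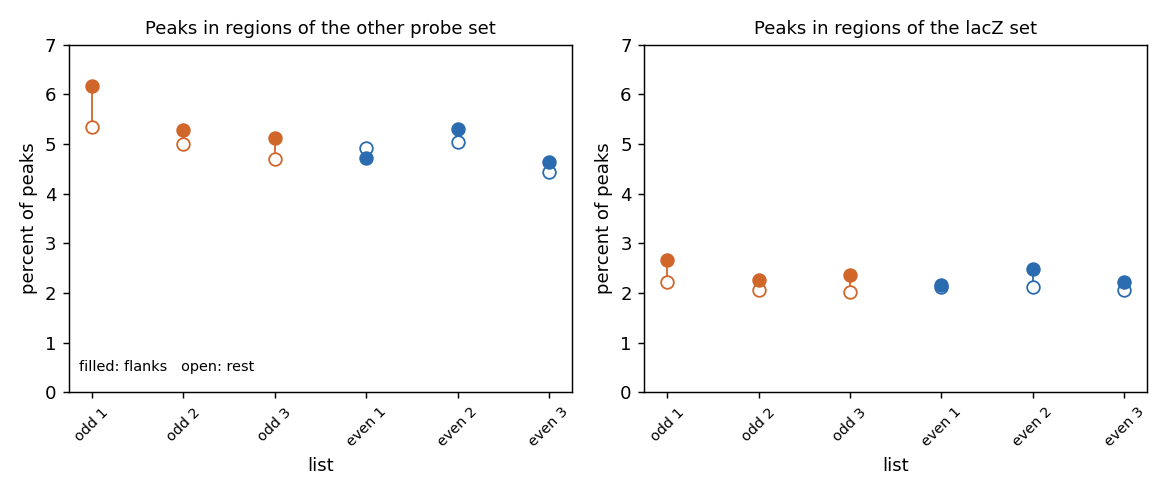
Percent of the peaks of each odd and even list falling in regions that hold 2 or more lists of the other probe set (left) or of lacZ (right); filled points are the flanks, open points the rest of the same chromosomes. Values are 4.43% to 6.16% on the left and 2.01% to 2.66% on the right, and filled points are higher in 5 of 6 lists and in 6 of 6.

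The bases shared by pairs of lists were compared as well. The Jaccard index, bases in both lists over bases in either, was 1.40% ± 0.109 for odd-even pairs in the flanks and 1.34% ± 0.144 in the rest (SD over 9 pairs that share lists). It was 0.654% ± 0.173 and 0.645% ± 0.229 for even-lacZ pairs, and 0.747% ± 0.187 and 0.600% ± 0.209 for odd-lacZ pairs. The odd-lacZ index was higher in the flanks in 9 of 9 pairs, the odd-even index in 7 and the even-lacZ index in 5. Among lists of the same set it was 59.9% ± 1.79 for even, 54.7% ± 4.82 for odd and 40.5% ± 9.93 for lacZ in the flanks, and 59.6% ± 2.20, 55.4% ± 4.65 and 42.2% ± 10.3 in the rest. Pericentromeric peaks thus recurred within a set far more than between sets, as did peaks elsewhere.

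Regions called candidates below had peaks from 5 or 6 probe lists and none from lacZ, and their share in the flanks was near that in the series. They numbered 172 of 14195 pericentromeric regions (1.21%), where 1.14% of all 345599 regions met the rule. Of the 172, 110 had a peak in all 6 probe lists, as had 2178 of the 3783 elsewhere, which is 0.775% of flank regions and 0.657% of the others. Odd and even summits lay within 100 bases of each other in 40 of them (23.3%), against 1226 of 3783 candidates elsewhere (32.4%). The median distance was 234 bases in the flanks and 207 in the rest, at median region lengths of 885.5 and 875 bases. Candidates were spread widely, with at least 1 in 37 of the 39 flanks. The left flank of chromosome 16 held 12 (2.93% of its regions), the right flank of chromosome 19 held 11 (2.13%) and the left flank of chromosome 17 held 10 (2.33%). By share the right flank of chromosome 5 (9, 2.62%) and the left flank of chromosome 2 (6, 2.30%) also lay above that of chromosome 19. The left flanks of chromosomes 9 and 11 held none.

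The rules for single sets gave shares near the series as well. Regions with all 3 lacZ lists and at most 1 probe list made up 5.70% of those in the flanks (809) and 6.15% of all regions. Regions with all 3 odd and no even list made up 14.6% (2066) and 15.2%, and those with all 3 even and no odd list 18.5% (2619) and 18%. A peak in all 9 lists was found in 2 flank regions (0.0141%), where 0.0142% of all regions had one.

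The 12 candidates named here had the highest mean percentile of fold within their lists. Positions are on hg19. The first, on chromosome 18 from 14444193 to 14445698, had folds of 153, 520 and 167 in odd and 71.5, 135 and 78.8 in even lists, and the summits of the sets were 32 bases apart. The second, on chromosome 13 from 19188278 to 19189875 and 167542 bases from the stretch, had 212, 465.5 and 219 in odd and 78.3, 92.1 and 89.7 in even lists, and its summits were 13 bases apart. Folds of different lists are given side by side and not compared, since their depth is unknown.

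A pair of candidates lay on chromosome 15 about 1 Mb apart. From 20974831 to 20976334 the folds were 135, 263 and 239 in odd and 53.1, 67.999 and 92.4 with even probes, and the summits were 112 bases apart. From 21981505 to 21982986 they were 159, 271 and 200 and 66.7, 51.3 and 88.7, and the summits were 56 bases apart. Their lengths of 1504 and 1482 bases were close to those of the first 2 candidates, 1506 and 1598 bases.

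The next 8 ranked lower in their lists, with mean percentiles of 87.1 to 92.3. On chromosome 12 from 33115060 to 33115984 odd folds were 96.5, 297 and 191 and even folds 20.5, 25.2 and 40.6. On chromosome 10 from 44104034 to 44104944 they were 83.3, 186 and 80.8 against 24.4, 26.0 and 17.2. On chromosome 22 from 18116193 to 18117112 they were 15.9, 26.97 and 26.0 against 88.7, 57.0 and 77.2. The summits of the sets lay 29, 38 and 83 bases apart in these 3.

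On chromosome 19 from 30321389 to 30322243 the mean fold was 78.3 ± 15.2 with odd and 34.5 ± 6.06 with even probes (SD, n = 3 here and in the rest of the paragraph). On chromosome 17 from 21232124 to 21233009 it was 83.1 ± 22.2 and 29.8 ± 2.10, and on chromosome 16 from 49355494 to 49356547 it was 81.5 ± 35.4 and 31.5 ± 1.93. On chromosome 12 from 33028810 to 33029667 it was 41.7 ± 16.4 and 30.5 ± 5.98. On chromosome 10 from 36637693 to 36639286 it was 34.3 ± 16.1 and 43.2 ± 2.70, and the summits were 778 bases apart in a merged region of 1594 bases. Each SD also holds differences in scale between lists.

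Regions found with control probes alone also ranked high in their lists, at mean percentiles of 99.4 to 99.9 for the first 5. The lacZ folds were 152, 356 and 99.9 on chromosome 21 from 11063540 to 11064494, which with the region already given on chromosome 16 led the lacZ-only regions. They were 130, 467 and 75.1 on chromosome 19 from 24279731 to 24280676 and 114, 308 and 68.4 on chromosome 16 from 46501598 to 46502548, 115 kb from the odd cluster's stretch. On chromosome 3 from 88575785 to 88576718 they were 130, 309 and 64.4. No odd or even list had a peak in any of these.

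Among odd-only regions 3 long ones led. On chromosome 14 from 19657634 to 19660233 the odd folds were 219, 645 and 208, the second being the highest of any flank peak in its list. On chromosome 22 from 16182799 to 16185348 they were 159, 503 and 239, and on chromosome 14 from 19915058 to 19917827 167, 380 and 245. These regions were 2600, 2550 and 2770 bases long. The next were on chromosome 15 from 20356062 to 20356990 (129, 271 and 199) and chromosome 13 from 20351166 to 20352058 (135, 244 and 237), of 929 and 893 bases. All 5 lay beside stretches that start at position 1.

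The leading even-only regions were shorter than the longest odd-only ones. Their folds were 170, 270 and 215 on chromosome 13 from 20808128 to 20809055, 196, 258 and 171 on chromosome 2 from 90124711 to 90125622, and 196, 223 and 149 on chromosome 14 from 20366993 to 20367917. On chromosome 2 from 89413350 to 89414270 they were 150, 223 and 162, and on chromosome 12 from 40248773 to 40249724 139, 210 and 140. All 5 were between 912 and 952 bases long.

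The 2 regions found with all 9 lists differed in how their sets lined up. On chromosome 20 from 31984087 to 31985438 the folds were 31.1, 79.5 and 29.4 in lacZ, 20.4, 38.96 and 47.5 in odd and 32.2, 39.1 and 54.3 in even lists. On chromosome 16 from 48964559 to 48967061 they were 30.3, 43.0 and 12.5 in lacZ, 7.28, 10.98 and 11.1 in odd and 28.5, 17.7 and 27.9 in even lists. There the odd and even summits were 1299 bases apart in a merged region of 2503 bases, which joins peaks with distant summits.

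The flanks differed more among themselves than the flanks as a whole did from the rest. Pooled over lists they held 143 to 385 peaks per Mb with a median of 260, against 273 in the rest, and 25 of 39 were below the rest of their own chromosome. The densest were the left flank of chromosome 20 (385), the right flank of chromosome 19 (374), and the right flanks of chromosomes 20 (346), 17 (344) and 16 (320.0). The sparsest were the left flank of chromosome 9 (143), the right flanks of chromosomes 21 (156) and 9 (174), and the left flanks of chromosomes 2 (179) and 11 (188). The flank of chromosome 21 ran into that chromosome's second peak-free stretch, which began at 11181622. Its density therefore counts peak-free bases. The implied background also differed between flanks. The median percentile of background within a list was 89.1 in the flank of chromosome 21, where 22.9% of peaks belonged to the top 1% by background. In the dense right flank of chromosome 20 it was 85.7. It was 27.5 in the left flank of chromosome 9.

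Peaks per 10000 of a list were compared between sets in 902 windows of about 3 Mb, the 39 flanks among them, with limma on log2 values and adjustment over all windows. Between probe and lacZ lists 14 flanks passed an adjusted p of 0.05, 9 higher and 5 lower with probes. That is 35.9% of the flanks, below the 42.8% of all windows that passed (20.4% higher and 22.4% lower). The median log2 difference was 0.02 in flanks and −0.03 in all windows. Between odd and even lists 12 flanks passed, 3 higher and 9 lower with odd probes, where 20.3% of all windows passed (9.65% higher and 10.6% lower), with a median of −0.08 in flanks and −0.01 in all. Without replicate 1, 8 flanks passed between probe and lacZ lists (20.5%, against 19.6% of all windows). None passed between odd and even lists, in flanks or elsewhere, where limma gave 11 flanks, and 183 of all windows, an unadjusted p under 0.05. Without replicate 2, 3 flanks passed between odd and even lists (7.69%, against 6.54% of all windows). With lists of equal length 21 passed (53.8%, against 51.2% of all windows).

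The left flank of chromosome 16, which also held the most candidates, was highest with probes. It held 7.004 to 10.4 peaks per 10000 in lacZ, 10.9 to 13.2 in odd and 13.8 to 15.2 in even lists, and the groups did not overlap. The log2 difference between probe and lacZ lists was 0.63 (SE 0.0908, limma adjusted p = 3.75e-05), the rank 9 among the 902 windows. The right flank of chromosome 17 followed with 0.59 (SE 0.0874, limma adjusted p = 5.27e-05), at 7.78 to 11.7 peaks per 10000 in lacZ, 13.7 to 15.1 in odd and 15.1 to 15.7 in even lists. The right flanks of chromosomes 8 and 10 and the left flank of chromosome 18 were higher by 0.42, 0.36 and 0.34.

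Others held more lacZ peaks. In the right flank of chromosome 7 the lacZ lists held 10.7 to 15.95 peaks per 10000, the odd lists 7.80 to 8.41 and the even lists 9.76 to 10.8, a log2 difference of −0.49 between probe and lacZ lists (SE 0.0952, limma adjusted p = 0.000497). The even and lacZ ranges overlap narrowly, and the flank is the one with the lacZ cluster next to its stretch. In the right flank of chromosome 13 the lacZ lists held 14.8 to 16.8, the odd lists 11.4 to 13.2 and the even lists 10.3 to 11.5 (−0.44, SE 0.069, limma adjusted p = 7.06e-05), although the second candidate lies in it. The right flanks of chromosomes 18 and 3 and the left flank of chromosome 19 were lower by −0.35, −0.31 and −0.26.

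The left flank of chromosome 11 separated odd from even probes more than any other of the 902 windows did in this direction. The odd lists held 38, 58 and 62 peaks there and the even lists 85, 94 and 117, although the lists of odd replicates 2 and 3 were longer than that of even replicate 2. Per 10000 peaks this was 5.49 to 5.91 in odd, 9.31 to 10.8 in even and 6.60 to 7.78 in lacZ lists, a log2 difference of −0.80 between odd and even lists (SE 0.108, limma adjusted p = 0.00017). The lacZ lists lay between the probe sets. It is 1 of the 2 flanks with no candidate.

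Further differences between the probe sets were smaller. The right flank of chromosome 2 held 13.3 to 15.7 peaks per 10000 in odd and 10.1 to 11.6 in even lists (0.45, SE 0.080, limma adjusted p = 0.00102). The right flank of chromosome 16, with the tall odd cluster, held 14.1 to 15.4 and 10.8 to 11.6 (0.39, SE 0.0719, limma adjusted p = 0.00115). The right flank of chromosome 6 and the left flanks of chromosomes 5, 4 and 8 were lower with odd probes by −0.50, −0.44, −0.34 and −0.31. For comparisons of each probe set with lacZ, which share the lacZ lists, 12 flanks passed with odd probes (6 higher and 6 lower) and 17 with even probes (11 higher and 6 lower). Of all windows 42.2% passed with odd probes (18.5% higher and 23.7% lower) and 36.1% with even probes (17.4% higher and 18.7% lower). With even probes 5 flanks passed without replicate 1 (12.8%, against 10.3% of all windows) and 11 without replicate 2 or without lacZ replicate 1 (28.2%, against 30.04% and 29.05%).

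**Figure D5:**
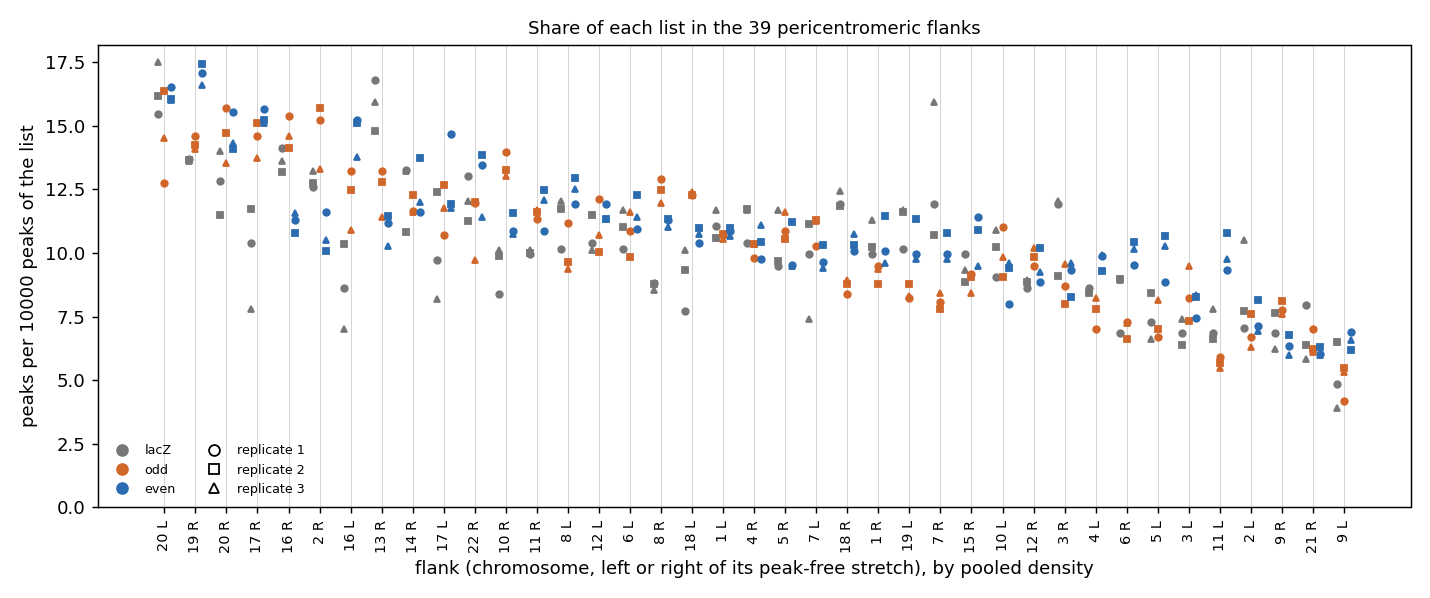
Peaks per 10000 of each list in the 39 flanks, ordered from the densest to the sparsest by pooled density (L and R are left and right of the stretch); grey, orange and blue are lacZ, odd and even lists, and marker shape gives the replicate. The left flank of chromosome 11 shows the widest gap of even (9.31 to 10.8) above odd lists (5.49 to 5.91), and the left flank of chromosome 16 and right flank of chromosome 17 show lacZ below both.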

How the data were processed

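ChIRP-seq peak lists of 9 Jurkat libraries were used, 3 each with lacZ, odd and even probes. FastQC, Bowtie2 and the build hg19 are named for the reads, per the submitters' processing notes. Not given in the sources used here are the peak caller and its control. The deposited lists hold, per the file headers, the summit pileup, a signal of whole fragments not scaled to depth, the fold enrichment, a ratio of pileup to background, and −log10 of the p-value and q-value, which was not used. Peaks were called per library.

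Stretches, flanks and merged regions were computed with Python 3.11.15, numpy 2.4.6 and pandas 2.3.3. The members and lists were chosen with earlier results of these data known. Flank and rest were compared within each list, and the differences tested by exact sign changes over lists, or between sets by exact permutation of lists, both two-sided, with Benjamini-Hochberg adjustment within each family. Windows with a mean of at least 10 peaks were fitted with limma 3.58.1 in R 4.3.3 (trend) on log2 of peaks per 10000 after adding 0.5 peaks. On 902 simulated windows of the probe against lacZ comparison it found 99% of 2-fold and 70% of 1.5-fold changes, with 10 false calls among the unchanged windows. The spread of the simulated counts was assumed and not fitted to these lists. The regions named were the first 12 candidates and the first 5 lacZ-only, odd-only and even-only regions by mean percentile of fold, all regions of 9 lists and the 5 tallest by pileup; the flanks named were the 5 densest, the 5 sparsest and at most 10 called per contrast. Alternatives changed the flank width, stretches, list length, merging, presence rule, scale and replicates. No sequence is printed, as no hg19 genome was used here.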

Additional observations from a re-analysis of the deposited data

Results flagged for a closer look

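Of 18 checks for a library far from the others, 1 stood out, where chance alone would mark about 1 in 20. The share of the top 1% by pileup that lay in flanks was 14.1% in lacZ replicate 3, and its gap to the next list, odd replicate 1 at 7.56%, was most of the range of the 9 lists. That list was also the shortest, with 25701 peaks, and had the lowest median fold within 100 kb. The part of either in the share was not tested.

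In 3 measures the probe and lacZ lists differed by exact permutation over 84 choices of lists. The log2 ratio of implied background between flanks and rest differed by −0.0412 between probe and lacZ lists (exact permutation p = 0.0476, adjusted p = 0.0952), with 0.06 ± 0.02 in lacZ, 0.03 ± 0.03 with odd and 0.02 ± 0.03 with even probes (SD, n = 3). The log2 ratio of peak length differed by 0.0472 (exact permutation p = 0.0357, adjusted p = 0.0952), with −0.05 ± 0.02 in lacZ, −0.02 ± 0.02 in odd and 0.01 ± 0.01 in even lists. The share of the top 1% by fold in flanks differed by 1.80 percentage points (exact permutation p = 0.0119, adjusted p = 0.0357), as given above. The first and the second did not pass after adjustment over 4 measures.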

How the results depend on the processing

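The lower fold in flanks kept its direction and its side of 0.05 under all 17 alternatives, from −0.10 to −0.03 on the log2 scale. Comparison within chromosomes and the second stretch of chromosome 21 were chosen after seeing the data. The difference in density between probe and lacZ lists became 0.0722 without flanks of stretches that start at position 1 and 0.101 in the stronger part of each list, with fold at or above its median (exact permutation p = 0.0357 and 0.0476). With a replicate block it was 0.05 (exact permutation p = 0.222, where 27 arrangements allow 0.037), and counting only 50-kb bins cannot change it by construction. Correlations of the deviations of same-numbered lists ran from −0.05 to 0.524, with 2 of 9 above 0.1. Those of differently numbered lists ran from −0.50 to 0.378, with 2 of 18 above 0.1. The 2 of the same number were between odd and even lists, 0.227 for replicate 1 and 0.524 for replicate 3. Whether the numbers mark pairs was not tested. The block called 15 flanks between probe and lacZ lists (38.5%, against 47.2% of all windows) instead of 14.

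The higher overlap with lacZ was 0.374 points with flanks of 1 Mb, 0.140 with 5 Mb and 0.120 with close summits (exact permutation p = 0.25, 0.0938 and 0.0938), −0.0715 in the stronger part of each list and −0.11 at equal length, and 0.0947 to 0.282 without each replicate, the lowest (0.0947 and 0.096) when every list numbered 3, or that of lacZ alone, was left out. That with the other probe set was 0.491 at equal length, 0.454 when all 3 lists were required, −0.28 with close summits and 0.00842 in the stronger part. It was 0.131 with flanks of 5 Mb, 0.134 with stretches from lacZ lists, 0.151 without peaks within 500 kb and 0.163 without stretches that start at position 1. The mean of log2 pileup gave 0.0236. The 172 candidates became 59 and 273 with flanks of 1 and 5 Mb, 52 in the stronger part, 22 at equal length, 270 with peaks merged over 500 bases, 110 and 302 with 6 and at least 4 of 6 lists, and 172 to 292 without replicates, the highest without replicate 1. At equal length they made up 0.567% of flank regions and 0.439% of the rest. Between probe and lacZ lists, the flanks called were fewest without replicate 1, at 8 (20.5%, against 19.6% of all windows). They were most with lists of equal length, at 21 (53.8%, against 56% of all windows). Among the settings that left out replicates they were most without lacZ replicate 2, at 16 (41.0%, against 46.9%). At equal length 22 passed between odd and lacZ lists (56.4%, against 57.9% of all windows). Flank width, looser rules and shorter lists set counts by construction. Leaving out a replicate number also loosened the candidate rule, to all but 1 of the probe lists that remained. Without replicate 1 candidates made up 2.14% of flank regions and 1.96% of the rest. For the other alternatives the cause was not tested. The share of the top 1% by fold differed between probe and lacZ lists by 1.61 to 1.98 points without each replicate number, where exact permutation of 6 lists cannot give a p below 0.0667. Depth is unknown and limits all comparisons of weak peaks.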
